A study of Mus musculus with 10 samples.

Results

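The comparison of OKS + FoxO6 with OKS + DsRed at day 7 set 1 RNA-seq library against 1 other, and its members were the 12068 of 50600 annotated genes that had at least 10 expected counts in the higher of the 2 libraries. Both libraries came from mouse embryonic fibroblasts (MEFs) of E13.5 embryos of the cross CBA/CaJ X C57BL/6J, which carried an Oct4-GFP reporter. Both groups received retroviruses made in PlatE packaging cells for Oct4, Klf4 and Sox2 (OKS) and were then kept in iCD1, a defined reprogramming medium. The test group received FoxO6 in addition, and the control group the red fluorescent protein DsRed, which the labels shorten to DR. The series holds 10 libraries, 1 for each group at days 0, 1, 3, 5 and 7, so no difference at a single day has a replicate check, and nothing in the labels says whether the days of a group came from separate infections. The viral promoter drives FoxO6 at a level set by the infection, and the harvested cells were bulk populations in which fewer cells of a kind and less RNA per cell cannot be told apart.

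FoxO6 belongs to the forkhead box O class of transcription factors, which bind short DNA sites through a winged helix domain and are inhibited by insulin and growth factor signals through the kinase Akt. Members of the class are known to act on genes of stress resistance, autophagy, cell cycle exit and metabolism. Reprogramming of fibroblasts by OKS passes through a mesenchymal to epithelial transition, in which mesenchymal genes are shut off and junction and keratin genes come on, before the endogenous pluripotency network is switched on. The cells also move towards glycolysis and faster division on the way. The day 7 comparison asks how the transcriptome of such a culture stood when FoxO6 had been present throughout.

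Reads were counted per gene as RSEM expected counts, called reads from here on, and levels are given as TPM, the transcript share of a library after scaling by transcript length. The day 7 libraries held 1868566 reads for OKS + DsRed and 1560854 for OKS + FoxO6, within the range of 1208379 to 2225750 of the series. A difference is always taken as FoxO6 less DsRed on the log2(TPM + 1) scale, which understates changes of genes with low TPM. A read ratio is the ratio of a gene's share of all reads in the 2 libraries, with an exact 95% interval that covers counting error only, and it can differ from the TPM ratio where RSEM assigned other isoforms. For each gene list the text names by rule up to 4 called members in each direction, and any further member was chosen after its value was seen. The targeted gene Foxo6 (chromosome 4, 120267079 to 120287349, minus strand, all gene positions from GENCODE M21 on GRCm38) had 2 reads and a TPM of 0.81 with DsRed and 1743 reads and a TPM of 762 with FoxO6, a read ratio of 1043 (288 to 8622). The label of the FoxO6 library thus matched the gene it names. The transduced reprogramming factors were high in both libraries. Pou5f1, which encodes Oct4, had a TPM of 3941 with DsRed and 5379 with FoxO6. Klf4 had 2940.4 and 2798, and Sox2 had 2574 and 2624. None of these 3 genes passed the 2-fold threshold, and reads of the endogenous and viral copies cannot be told apart.

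Of the tested genes, 795 were more than 2-fold higher with FoxO6 (6.59%) and 1823 more than 2-fold lower (15.1%). A gene was called only when it also stayed past 2-fold in the same direction after a smooth trend with transcript length was taken out and when an exact binomial test of its reads, Benjamini-Hochberg adjusted over all tested genes, gave an adjusted p under 0.05. This left 670 genes called higher (5.55%) and 916 called lower (7.59%). The binomial test compares these libraries, not the conditions. The count called in each list below is to be read against these shares of 5.55% and 7.59%. The called higher genes had a median size of difference of 1.53, and 164 of them passed 4-fold. The called lower genes had a median of 1.80, and 328 passed 4-fold. In 117 of the higher and 213 of the lower genes, the other library held at most 3 reads. The called higher genes made up 2.38% of all TPM with DsRed and 7.79% with FoxO6, while the called lower genes made up 5.77% and 1.54%. When the binomial test was replaced by edgeR's exact test with dispersions taken from all 10 libraries, 166 genes were called higher and 123 lower.

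**Figure D1:**
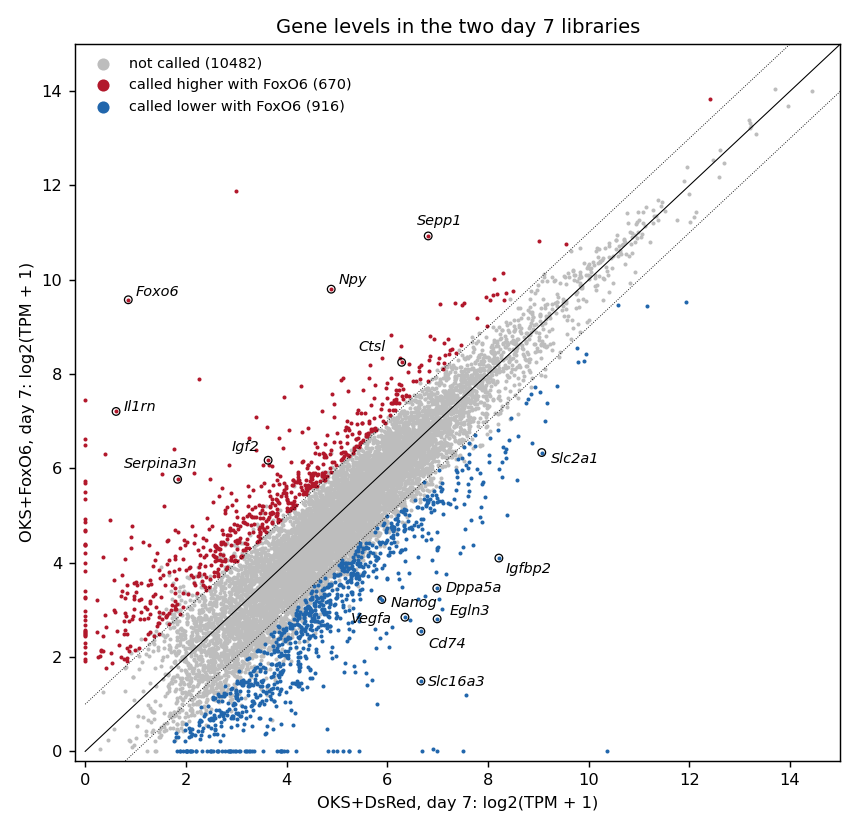
Each point is 1 of 12068 genes, with log2(TPM + 1) in the OKS + DsRed library on the x axis and in the OKS + FoxO6 library on the y axis at day 7. The solid line marks equal levels and the dotted lines 2-fold. The 670 genes called higher lie above it and include Foxo6, Il1rn and Sepp1, and the 916 called lower lie below it and include Slc16a3, Cd74 and Igfbp2.

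The length trend mattered at day 7. The median difference was 0.18 for the 1062 genes with an effective length under 1 kb, 0.02 for the 3146 genes of 1 to 2 kb, -0.20 for the 5087 of 2 to 4 kb, -0.49 for the 2485 of 4 to 8 kb and -0.76 for the 288 longer ones. Long genes thus stood lower in the FoxO6 library as a whole. The mean transcript length weighted by TPM was 1920.2 with DsRed and 1743 with FoxO6, the lowest of the 10 libraries. The slope ran the other way at day 0 and was close to flat on days 1, 3 and 5. The median over all tested genes was -0.17 at day 7 before and 0.01 after the trend was taken out, and -0.03 when CPM, read shares without length scaling, were used. Without the trend correction 1431 genes were called lower and 703 higher, a higher share of 32.9% in place of 42.2%. The cause of the trend was not tested.

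**Figure D2:**
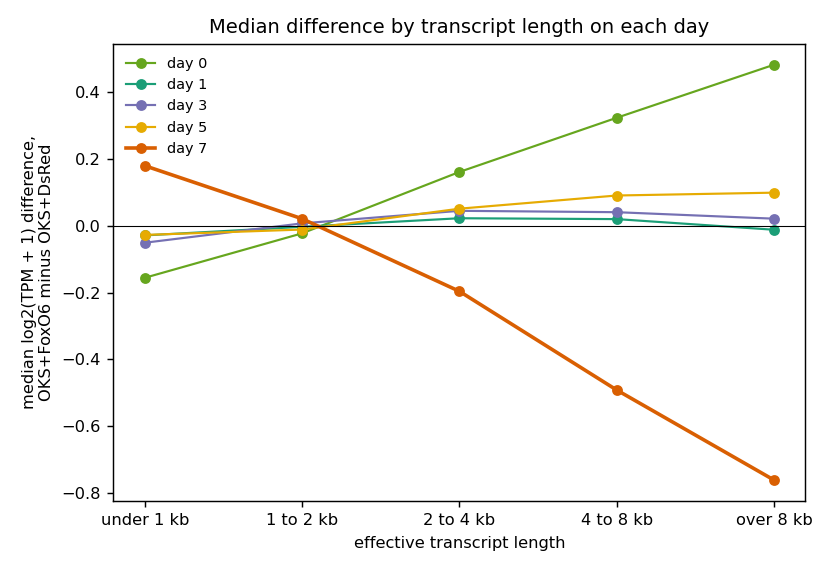
The y axis gives the median difference on the log2(TPM + 1) scale, FoxO6 less DsRed, of the genes in 5 classes of effective transcript length on the x axis, 1 line per day. Day 7 falls from 0.18 for genes under 1 kb to -0.76 for genes over 8 kb, day 0 rises, and days 1, 3 and 5 stay within 0.10 of 0.

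Pluripotency genes were lower with FoxO6. Of a list of 32 genes, 25 were measured, 12 were called lower and none higher, with a median difference of -1.30 against -0.17 for all tested genes. Nanog (chromosome 6, 122707489 to 122714633), a homeobox factor of the core network, had 122 reads and a TPM of 58.4 with DsRed and 16 reads and 8.31 with FoxO6, a read ratio of 6.37 lower (3.77 to 11.5). Esrrb (chromosome 12, 86361117 to 86521628), an orphan nuclear receptor that sustains naive pluripotency, had 84 and 8 reads, 8.77 lower (4.25 to 21). Dppa5a, an RNA-binding protein of early embryos, had 68 and 5 reads. Dppa2, a DNA-binding protein of the early embryo, had 15 and 0 reads, 4.18-fold lower with the 0 set to a floor of 3 reads. Its exact 95% lower limit was 3.0. Each of these members was called lower. The RNA-binding L1td1, the most abundant of the called members, had a TPM of 291 with DsRed and 112 with FoxO6. Tet1, an enzyme that oxidises methylcytosine, had 78 and 1 reads, and Zfp42, the marker Rex1, had 65 and 19. Several members did not pass. Sall4, a zinc finger partner of Oct4, had 160 and 54 reads and a difference of -1.30 that came to -0.96 after the length trend, and Tfcp2l1 had 266 and 209 reads. Mycn, a Myc family gene that is high in embryonic stem cells, was called lower with 46 and 7 reads. Under edgeR with shared dispersions 4 of the pluripotency genes were called lower.

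Epithelial genes were lower by a similar amount. Of 40 genes 34 were measured, 18 were called lower and 1 higher, with a median difference of -1.41. Cdh1 (chromosome 8, 106603351 to 106670246), the E-cadherin of adherens junctions, had 853 reads and a TPM of 201 with DsRed and 113 reads and 28.9 with FoxO6, 6.31 lower by reads (5.18 to 7.74). Epcam (chromosome 17, 87635979 to 87651129), an epithelial adhesion molecule, had 437 and 105 reads, 3.48 lower (2.80 to 4.34). Both libraries therefore held epithelial transcripts, at unequal levels. Among keratins, Krt8 had 254 and 58 reads, Krt18 had 40 and 8, Krt19 had 88 and 26 and Krt7 had 18 and 4. Claudins Cldn3 and Cldn4, the tight junction strands, had 42 and 12 reads and 53 and 10 reads. Desmosomal Dsg2 had 193 and 35 reads, and the grainyhead factors Grhl2 and Grhl3, which drive epithelial genes, had 13 and 2 reads and 51 and 10 reads. The called members thus span junctions, filaments and transcription factors. Jup, a junction plaque gene that fibroblasts also use, had 869 and 872 reads and was not called. Perp, a desmosome and p53 target gene, was the only member called higher, with 137 and 342 reads. With shared dispersions 4 members were called lower and 1 higher.

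The promoters of these genes were searched in RefSeq windows on GRCm38.p6 from 250 bases before to 50 after each transcription start, on both strands. The E-box CACCTG, the site that Snail and Zeb repressors read, was held by 22 of the 26 windows found for 21 of the measured epithelial genes (84.6%). It was held by 17.5% of the 11846 windows of all tested genes, by 25.9% of those of the called lower genes and by 19.2% of those of the called higher genes. The window of Krt7 (chr15:101412153-101412452, plus strand) is printed because it belongs to the called epithelial gene with the largest difference whose window held the site, with the 6 bases of the match in capitals.
Krt7: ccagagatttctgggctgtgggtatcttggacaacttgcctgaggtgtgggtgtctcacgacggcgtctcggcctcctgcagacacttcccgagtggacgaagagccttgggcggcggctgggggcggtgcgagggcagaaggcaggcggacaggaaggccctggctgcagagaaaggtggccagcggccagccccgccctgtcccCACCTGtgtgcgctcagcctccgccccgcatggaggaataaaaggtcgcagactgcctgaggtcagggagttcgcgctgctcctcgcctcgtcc
The match begins at position -44 from the start. A match is a description of the letters, not of binding.

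Mesenchymal genes were called in both directions. Of 35 genes 31 were measured, 3 were called higher and 2 lower (against 5.55% and 7.59% of all tested genes), and the median difference of -0.08 turned to 0.13 after the length trend. Tgfbr2 (chromosome 9, 116084293 to 116175360), the type II receptor for TGF-beta, had 370 and 1066 reads with DsRed and FoxO6, 3.45 higher (3.06 to 3.89). The receptor kinase Axl had 294 and 665 reads and Twist1, a helix-loop-helix factor of mesenchyme, had 73 and 149. These 3 stood higher with FoxO6. Prrx1 had 335 and 142 reads and Tcf4 had 364 and 133, and neither was called lower when CPM were used. Markers that define fibroblasts, the labelled cell type, were present in both libraries, and of 5 of them Twist1 alone was called. Thy1 had 20 and 28 reads, Pdgfra 21 and 18, Pdgfrb 29 and 28, and Col1a1 561 and 414.

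Of 20 collagen genes measured, 2 were called higher and 1 lower (against 5.55% and 7.59% of all tested genes). Col1a2 (chromosome 6, 4504814 to 4541544), a chain of type I collagen, had 1290 and 3540 reads, 3.29 higher (3.08 to 3.50), and Col4a2 of basement membranes had 1024 and 1998. Col15a1 was called lower, with 44 and 9 reads. Col1a1, whose chains pair with those of Col1a2, was not called, with a difference of -0.32 that turned to 0.24 after the length trend. Of 12 proteoglycan and elastic fibre genes 2 were called higher and 1 lower, beside the same shares of all genes. The decorin gene Dcn had 51 and 162 reads and Mgp, an inhibitor of calcification, had 5 and 15, while Prelp, a leucine-rich proteoglycan, had 117 and 24 and was the lower one. The gelatinase Mmp2 had 111 and 408 reads, 4.4 higher (3.56 to 5.48), and Adamts5, an aggrecanase, had 4 and 49. The metalloprotease inhibitor Timp3 had 508 and 157 reads and the sheddase Adam19 had 546 and 144, both called lower. Of 22 integrin and laminin genes, 4 were called lower and none higher, with a median of -0.51 that came to -0.03 after the length trend. With shared dispersions 2 were called lower. Itga6 had 450 and 70.7 reads, Lama5 had 1095 and 219 and Itga3 had 140 and 33. Itga6 and Itga3 encode laminin receptors, and Lama5 encodes a laminin chain.

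Genes of interferon gamma and of antigen presentation held the largest share of called members among the lists with over 20 genes measured, 20 lower and none higher of 33, with a median difference of -1.39. Cd74, the invariant chain of MHC class II, had 115 and 5 reads and a TPM of 101 and 4.83, 19.2 lower by reads (8.0 to 60.3). Nlrc5 (chromosome 8, 94434356 to 94527272), the transactivator of MHC class I genes, had 187 and 20 reads, 7.81 lower (4.91 to 13.1). Several of the called members belong to the class I pathway. The immunoproteasome genes Psmb8, Psmb9 and Psmb10 had 260.0 and 42, 149.8 and 16.2, and 86 and 38 reads, and the peptide transporter Tap1 had 503 and 109. The class I heavy chain gene H2-K1 had 3312 and 949.7 reads and H2-D1 had 1619.6 and 646. The light chain B2m, at 3458 and 1981 reads, was not called. Interferon inducible GTPases were among the lower genes too, with Igtp at 376 and 79 reads and Gbp2 at 395 and 121. Tgtp2 and H2-Q7 share most of their sequence with neighbours and are uncertain alone. Tgtp1 and Tgtp2 together had 1040 and 240.0 reads, and H2-Q6 and H2-Q7 together had 1086 and 94.9. The receptors Ifngr1 and Ifngr2 had 53 and 51 reads and 60 and 79 reads and were not called. With shared dispersions 8 members were called lower and none higher.

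The motif GAAANNGAA, the core of the site read by interferon regulatory factors, was held by 14 of 30 windows of 26 of these genes (46.7%), against 6.94% of the windows of all tested genes. The window of Tgtp2 (chr11:49064163-49064462, minus strand) belongs to the called member with the largest difference whose window held it.
Tgtp2: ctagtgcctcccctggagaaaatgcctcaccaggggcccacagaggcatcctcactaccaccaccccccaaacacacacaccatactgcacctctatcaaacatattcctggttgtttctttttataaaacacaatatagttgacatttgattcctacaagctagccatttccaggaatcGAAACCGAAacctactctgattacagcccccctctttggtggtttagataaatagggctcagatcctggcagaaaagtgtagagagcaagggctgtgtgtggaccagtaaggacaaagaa
The capitals mark the match, which begins at position -70 from the start.

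Of 34 type I interferon genes measured, 3 were called higher and 1 lower (against 5.55% and 7.59% of all tested genes), 22 were below 0 and the median was -0.25, and with shared dispersions none was called. The list's median was -1.63 at day 3 and -0.77 at day 5. The difference between the interferon lists was not tested. Oas2, an antiviral RNA sensor, had 539 and 1056 reads, 2.35 higher (2.11 to 2.61), and Usp18, an inhibitor of the interferon receptor, had 29 and 60. Ifit2 had 28 and 6. Of the markers that define macrophages, Ptprc, Csf1r and Adgre1 were at or near 0 in both libraries, and Cd68 was not. Ptprc, the pan leukocyte CD45, had 0 and 0 reads, Csf1r had 1.41 and 0 and Adgre1 had 0 and 1. Cd68, a lysosomal glycoprotein, had 21 and 11 reads and was not called. Of the other macrophage genes, Mpeg1, which interferon also induces, was called lower with 91 and 23. Only 2 of 14 macrophage genes reached 10 reads.

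Glycolysis genes were lower, 9 of 24 called and none higher, with a median difference of -0.77. Slc16a3 (chromosome 11, 120948480 to 120960868), the lactate exporter MCT4, had 207 reads with DsRed and 1 with FoxO6, a ratio of 173 (30.7 to 6862). The glucose transporters Slc2a1 (chromosome 4, 119108711 to 119137983) and Slc2a3 had 1557 and 189 reads and 696 and 67 reads, 6.88 lower (5.91 to 8.05) and 8.68 lower (6.75 to 11.3). Pdk1, a kinase that keeps pyruvate out of the mitochondria, had 163 and 23 reads. Entry, exit and branch point of the pathway thus held the largest differences. Within the pathway, Hk2 had 311 and 72 reads, Pfkl 311 and 109, Aldoc 159 and 40, Pgk1 837 and 332, and Ldha 1308 and 411. Gapdh, at 7649 and 5490.1 reads, and Gpi1, at 2293 and 1768, were not called. With shared dispersions 4 members were called lower. Outside the list, the 15 called genes with the largest decrease after the length trend and at least 50 reads, with Gm, Rik and pseudogene models such as Rpl10-ps3 left out, included genes of several kinds. Egln3, a prolyl hydroxylase that marks HIF for decay, had 319 and 14 reads, 19 lower (11.2 to 35.2), and Ndufa4l2, a mitochondrial protein, had 115 and 1, a ratio of 96.1 (16.9 to 3827). Vegfa, the vascular growth factor, had 189 and 13 reads, 12.1 lower (6.93 to 23.2), and Atp1b1, a subunit of the sodium pump, had 98 and 5. Crhr2, a receptor for stress peptides, had 173 and 14 reads. Bnip3, a mitophagy receptor outside these 15, had 138 and 43.

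The 88 measured oxidative phosphorylation genes had a median of 0.32, which came to 0.21 after the length trend. Before the trend was taken out 70 were above 0 (against 40.2% of all tested genes). In this list 3 were called higher and 1 lower (against 5.55% and 7.59%). The lower one was Ndufa4l2, which is in the list by its name and is no subunit of complex I. Ndufa1, a complex I subunit, had 17 and 41 reads. The 86 ribosomal protein genes had a median of 0.14, which came to -0.03 after the length trend, and a single call, Rpl10, which was higher with 381 and 1195 reads. Its near-identical copy Rpl10-ps3 had 902 and 0 reads, and the sum of both was 1283 and 1195, so the call rests on how reads were divided between them. Of 15 mitochondrial genes mt-Co2, a subunit of cytochrome oxidase, was called lower with 2363 and 409.5 reads. Gm10925, a pseudogene model on chromosome 1 chosen after its value was seen, had 4.18 and 2094 reads, and whether it shares reads with a mitochondrial gene was not tested.

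Lysosomal genes had the highest median of the 44 lists. Of 29 measured, 12 were called higher and none lower, 26 were above 0 and the median difference was 0.82. Ctsl (chromosome 13, 64359337 to 64370890), a cysteine protease, had 143 reads and a TPM of 77.0 with DsRed and 519 reads and 303 with FoxO6, 4.34 higher (3.60 to 5.27). Ctsd (chromosome 7, 142375911 to 142388038), an aspartic protease, had 573 and 1531 reads, 3.20 higher (2.90 to 3.53). Proteases, glycosidases and a lipid carrier were all represented. Hexa, a chain of beta-hexosaminidase, had 128 and 288 reads, the alpha-galactosidase Gla had 27 and 84 and the sialidase Neu1 had 74 and 181. The cholesterol carrier Npc2 had 256 and 536 reads. Ctsb, Lamp1 and Psap had differences of 0.91, 0.82 and 0.54 and were not called, and Gm2a and Arsa had -0.80 and -1.11. With shared dispersions 8 members were called higher and none lower. Autophagy genes had 6 of 40 called higher and none lower (the shares of all tested genes were 5.55% and 7.59%, for the lysosomal list too), with a median of 0.18. Map1lc3b, the LC3 protein of the autophagosome membrane, had 182 and 383 reads, and the cargo receptors Sqstm1 and Optn had 612 and 1342 reads and 177 and 424. Becn1 had 230 and 491, Vmp1 115 and 184, and Uvrag 50 and 99. With shared dispersions 4 of these were called.

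**Figure D3:**
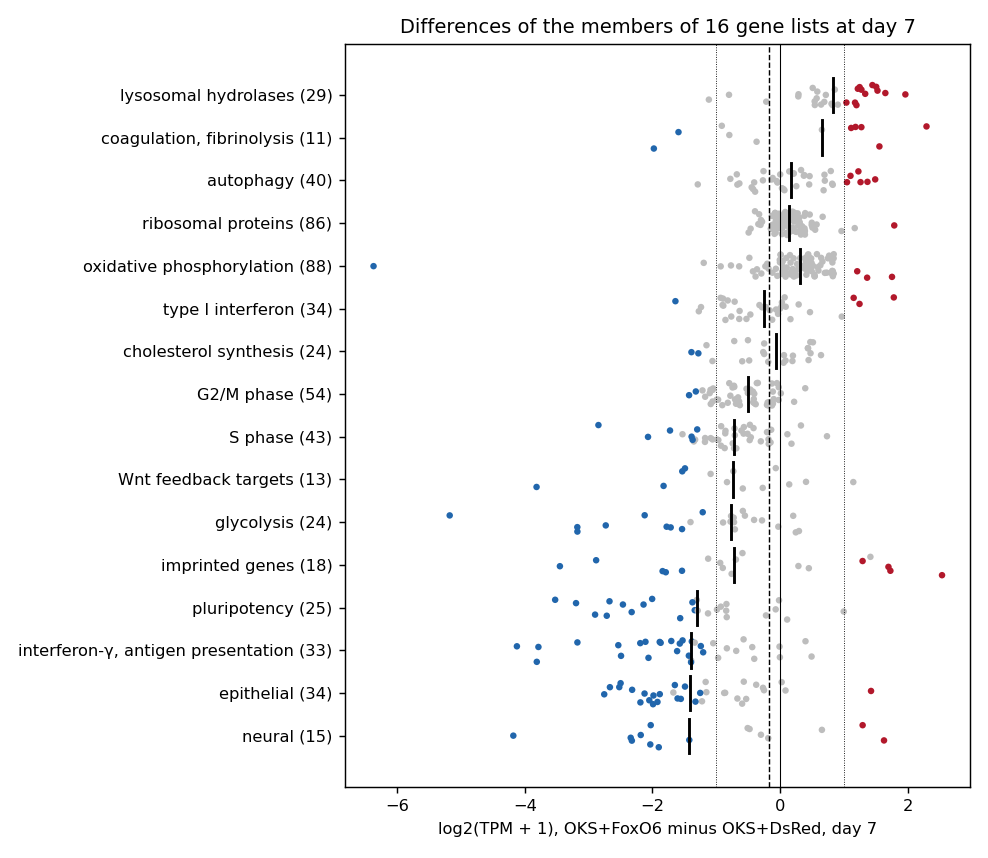
Each point is a measured gene of 1 of 16 lists, named on the y axis with the number measured, and the x axis gives its day 7 difference on the log2(TPM + 1) scale, FoxO6 less DsRed. Red and blue points are genes called higher and lower, black bars are list medians, the dashed line is the median of all tested genes at -0.17 and dotted lines mark 2-fold. The lysosomal median lies at 0.82 and the epithelial, interferon gamma and pluripotency medians between -1.30 and -1.41.

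Leaving out Gm, Rik and pseudogene models, the 15 called genes with the largest increase after the length trend and at least 50 reads, Foxo6 among them, held several secreted and membrane proteins. Il1rn (chromosome 2, 24336853 to 24351494), the interleukin 1 receptor antagonist, had 1 and 261 reads, a ratio of 312 (55.6 to 12388). Sepp1 (chromosome 15, 3268547 to 3280508), the selenium carrier selenoprotein P, was the most abundant of them, with 184 reads and a TPM of 111 with DsRed and 3142 reads and 1949 with FoxO6, 20.4 higher (17.6 to 23.9). Npy, the appetite peptide neuropeptide Y, had 14 and 403 reads. Each of these 3 was also called higher on at least 3 of the other days. Try5, a trypsinogen with close paralogues, had 0 and 59 reads, 23.5-fold higher with the 0 set to a floor of 3 reads. Its exact 95% lower limit was 18.6. Prrt4 had 1 and 234 reads, a ratio of 280.1 (49.8 to 11111), and Prss12, a neuronal protease, had 1 and 66, a ratio of 79.0 (13.7 to 3168). Ano4 had 1 and 53 reads, Emb 4 and 114, and Cacnb2, a calcium channel subunit, 7 and 170. Tph1, the enzyme that starts serotonin synthesis, had 6 and 161 reads, 32.1 higher (14.4 to 88.8). Slc4a11, a borate transporter family member, had 56 and 585 reads. Of the abundant genes, Ftl1, chosen after its value was seen and the light chain of the iron store ferritin, had 4782 and 11872 reads.

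Of 28 known targets of the FoxO class measured, 4 were called higher and 1 lower (against 5.55% and 7.59% of all tested genes), with a median of -0.05 that turned to 0.29 after the length trend. The 4 were Sepp1, Map1lc3b, Gadd45a and Cited2. Gadd45a, a growth arrest gene, had 48.0 and 165 reads, 4.12 higher (2.97 to 5.80), and Cited2, a cofactor of CBP, had 35 and 119, 4.07 higher (2.77 to 6.12). Bnip3 was the lower one. With shared dispersions all 4 higher genes and no lower one were called. The forkhead core GTAAACA was held by 27 of 663 windows of the called higher genes (4.07%), by 1.86% of the windows of the called lower genes and by 2.41% of those of all tested genes. The looser letters CAAAACA were held by 5.13%, 4.08% and 4.19%, and no stretch can match both. Of all RefSeq windows, of tested genes or not, 3.65% held GTAAACA and 6.28% CAAAACA. Osbp2, an oxysterol binding protein, had 0 and 47 reads, 18.8-fold higher with the 0 set to a floor of 3 reads. Its exact 95% lower limit was 14.7. Osbp2 was the called higher gene with the largest difference whose window held GTAAACA. Its window is 1 of 3 (chr11:3722178-3722477, minus strand).
Osbp2: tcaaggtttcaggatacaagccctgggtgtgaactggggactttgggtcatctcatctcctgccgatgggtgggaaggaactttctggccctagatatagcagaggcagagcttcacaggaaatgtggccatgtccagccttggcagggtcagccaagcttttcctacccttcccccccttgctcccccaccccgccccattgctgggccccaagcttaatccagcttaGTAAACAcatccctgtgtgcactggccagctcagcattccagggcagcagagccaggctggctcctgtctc
The capitals mark the match, which begins at position -21 from the start.

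Genes of the insulin and IGF list were called in both directions, 4 higher and 3 lower of 20, with the noncoding RNA H19 among the higher. The ligand Igf2 (chromosome 7, 142650766 to 142666816) had 32 and 142 reads, 5.31 higher (3.60 to 8.06), and the receptor Igf1r had 211 and 426, 2.42 higher (2.04 to 2.86). Of the binding proteins that hold the ligands outside cells, 3 were called lower. Igfbp2 (chromosome 1, 72824503 to 72852474) had 359 and 18 reads, 16.7 lower (10.4 to 28.4), its neighbour Igfbp5 had 560 and 87, 5.38 lower (4.28 to 6.82), and Igfbp3 had 734 and 176. The related Igfbp7 had 6 and 32 and was called higher, while Igfbp4 with 77.0 and 105 and Igfbp6 with 51 and 32 were not called. With the length trend taken out the median of this list turned from -0.20 to 0.33. Among 18 imprinted genes, 4 were called higher and 5 lower, with Igf2 and H19 counted in this list too. The higher ones included H19, a noncoding RNA next to Igf2 on chromosome 7, with 120 and 336 reads, Snrpn with 130 and 296 and Ndn with 28 and 91. Dio3, Meg3, Rian and Mirg of one imprinted region on chromosome 12 were lower, with 167 and 11, 892 and 174, 474 and 116, and 29 and 7 reads. Peg10, a retrotransposon-derived gene, had 1461 and 176 reads, 6.93 lower (5.93 to 8.15). The called genes of these regions of chromosomes 7 and 12 thus stood in opposite directions.

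Genes of blood clotting had 5 of 11 called higher and 2 lower, and with shared dispersions 1 higher and none lower. Pros1, the anticoagulant protein S, had 153 and 703 reads, 5.50 higher (4.61 to 6.6), and Anxa5, which covers exposed phosphatidylserine, had 459 and 966. Thbd, the thrombomodulin receptor, had 46 and 131. F2rl1, a protease-activated receptor, was lower with 506 and 153 reads. Of the complement and acute phase genes 4 were called higher and 3 lower of 15, and with shared dispersions 3 higher and none lower. The 4 higher ones were Serpina3n, Lbp, Kng1 and Kng2. Serpina3n, a protease inhibitor, had 5 and 96.0 reads, 23 higher (9.52 to 72.4), Lbp, which binds bacterial lipopolysaccharide, had 19 and 183, and the kininogens Kng1 and Kng2 had 0 and 41.2 reads and 17 and 90.8, with some sequence in common. Saa3, C1s1 and Cfb were lower. Of 20 vascular growth factor and angiogenic genes, 5 were called higher and 2 lower (against 5.55% and 7.59% of all tested genes). Ecscr, an endothelial surface protein, had 14 and 163 reads, Pdgfb, a platelet-derived growth factor, had 6 and 17, and Ang, the ribonuclease angiogenin, had 1 and 13. Vegfd had 17 and 136 reads, 9.58 higher (5.77 to 16.9), and Vegfb had 58 and 114, while Vegfa and the coreceptor Nrp2, with 2002 and 425 reads, were lower. The 3 Vegf genes were thus not shifted together. Among chemokines, Ccl2 had 125 and 49 reads, and Cxcl12 had 2 and 13, a ratio of 7.78 (1.76 to 71.0).

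Most cell cycle genes were below 0, a larger share than the 7217 of all 12068 tested genes. All tested genes had a median of -0.17, and of 0.01 after the length trend. Of 43 S phase genes 39 were below 0, 6 were called lower and none higher. Their median was -0.72, which came to -0.55 after the length trend. Uhrf1, which carries DNA methylation through replication, had 420 and 136 reads, and Hells, a chromatin remodeller, had 167 and 51. The replication licensing gene Cdc6 had 55 and 19 reads and the repair glycosylase Ung had 54 and 8. Of 54 G2/M genes 51 were below 0 but only 2 were called, with a median of -0.50 that came to -0.40 after the length trend. Hjurp, the chaperone of centromeric histone, had 437 and 203 reads and lost its call on CPM, and Lbr had 184 and 49. The G2/M share of calls was thus under the 7.59% of all tested genes. With shared dispersions 1 S phase gene and no G2/M gene was called. Of 22 cyclin and inhibitor genes of G1, Ccnd3 was called higher, with 196 and 356 reads. The cell cycle homology region TTTGAA was held by 34 of 52 windows of 47 G2/M genes (65.4%), against 11.9% of the windows of all tested genes. The window of Hjurp (chr1:88277530-88277829, minus strand) holds it at position 20 after the start.
Hjurp: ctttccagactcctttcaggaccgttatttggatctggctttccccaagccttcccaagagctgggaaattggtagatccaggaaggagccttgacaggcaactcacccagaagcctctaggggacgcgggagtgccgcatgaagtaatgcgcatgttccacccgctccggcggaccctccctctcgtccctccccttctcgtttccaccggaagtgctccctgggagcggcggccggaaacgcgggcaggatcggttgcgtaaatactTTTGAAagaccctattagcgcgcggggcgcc
The capitals mark the match.

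In the Wnt pathway the calls were all lower. Of 13 feedback targets 4 were called, Nkd1 with 422 and 132 reads, Apcdd1 with 360 and 113, Tnfrsf19 with 33 and 6 and Rnf43, an E3 ligase that removes Wnt receptors, with 16 and 0. Of 20 receptor and antagonist genes, Sfrp1, Sfrp2 and Gpc3 were lower, with 91 and 19, 42.5 and 8, and 25 and 5 reads. In the TGF-beta and BMP list the BMP response genes Id1, Id2 and Id3 had 74 and 20, 147 and 44, and 126 and 26 reads, all lower, while Ctgf and Cyr61, matricellular genes, had 147 and 289 reads and 79 and 154, both higher. Of the ERK feedback and early genes, Dusp4 had 112 and 36 reads and Phlda1 129 and 50, whereas Fos had 18 and 40 and Dusp1 31 and 60. Dusp5 had 40 and 20 and was not called. Fgfr3 had 36 and 2 reads, a ratio of 15 (3.87 to 129), and Il17rd, an FGF signalling inhibitor, had 121 and 273. These lists held 8 to 25 measured genes. With shared dispersions no Wnt feedback or ERK gene was called. The Wnt receptor and antagonist list kept 1 lower call, the TGF-beta and BMP list 2 lower and the FGF list 1 higher.

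Of 30 chromatin genes 2 were called higher and 3 lower, and of 26 Hox genes 1 and 2, against 5.55% and 7.59% of all tested genes. Hdac9, a class IIa histone deacetylase, had 32 and 138 reads, 5.16 higher (3.49 to 7.84), and the de novo methyltransferase Dnmt3b had 55 and 7, 6.56 lower (2.98 to 17.1). Tet3 and Jarid2 were called lower with 179 and 56 and 333 and 132 reads, and both lost their call on CPM. Of the Hox genes, Hoxa9 and Hoxa2 were lower and Hoxd9 higher, the last with 3 and 20 reads. Of 24 cholesterol genes 2 were called lower, among them Hmgcs1, an enzyme of the early pathway, with 553 and 208 reads. Of 24 stress genes of the endoplasmic reticulum only Sdf2l1 was called, higher with 26 and 63 reads, and of 19 p53 targets Perp was higher and Pmaip1 lower.

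Genes of other cell types were called in numbers that differed by list. Of 15 neural genes measured, 12 were below 0, 8 were called lower and 2 higher, with a median of -1.42. With shared dispersions 4 neural genes were called lower and none higher. The neurofilament gene Nefl had 769 and 154 reads, 4.17 lower (3.50 to 4.99), the progenitor filament Nes 449 and 99, the tubulin Tubb3 89 and 3 and Sox11 306 and 70. The defining neural factors were low, with Sox1 at 8 and 2 reads, Pax6 at 3 and 13 and Elavl3 at 15 and 0. Of 9 skeletal muscle genes, Acta1, Myh8 and Myh4 were higher and Myh2 and Mylpf lower, while the defining genes Myod1, Myog and Ckm had at most 1 read. Acta1 had 3 and 238 reads, a ratio of 95 (32.1 to 464). All 6 keratinocyte genes measured were below 0. Lgals7, Krt6a and Klk10 were called lower, with 200 and 39, 23 and 2, and 20 and 5 reads. Of the defining genes, Krt5 had at most 1 read, and Krt14 had a difference of -0.68 and was not called. Among endothelial genes, Kdr, the main VEGF receptor, had 7 and 109 reads and Pecam1 had 18 and 2, with Cdh5 at 0 in both libraries. Tek had 205 and 281 reads and was not called. Sox17, Cdx2 and Elf5, which define endoderm and trophoblast, had 0 reads in both libraries. Of the other trophoblast genes 2 were measured and Prl2c2, a placental hormone gene with close paralogues, was called higher with 3.22 and 14.7 reads. Of 4 primitive endoderm genes measured 3 were above 0 and none was called. The transcription factor Gata2, one of the 15 genes with the largest decrease by the rule above, had 67 and 6 reads.

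The 4 other days, which share no library with day 7, show how far the calls reach. Of the 670 genes called higher at day 7, 589 were above 0 at day 5 (87.9%), against 51.0% of all tested genes, and 298 were also called higher there (44.5%, against 5.22%). The share above 0 was 76.1% at day 3, 71.0% at day 1 and 68.7% at day 0, where all tested genes stood at 57.6%. Of the 916 genes called lower, 754 were below 0 at day 5 (82.3%, against 48.9%) and 353 were called lower (38.5%, against 6.57%). The share below 0 came to 72.8% at day 3, 62.2% at day 1 and 45.1% at day 0, where it was 40.3% for all tested genes. At day 0 the share below 0 of the lower genes was thus close to that of all tested genes. The share called lower there was 4.69%, against 1.57% of all tested genes. On all 4 other days, 34 genes were called higher and 16 lower in the same direction, and on none of them 307 and 488. The genes called in the same direction on every day included Il1rn, Sepp1, Serpina3n, Gadd45a and Ctsl among the higher and Cdh1, Id1, Id2, Nefl and Tubb3 among the lower.

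**Figure D4:**
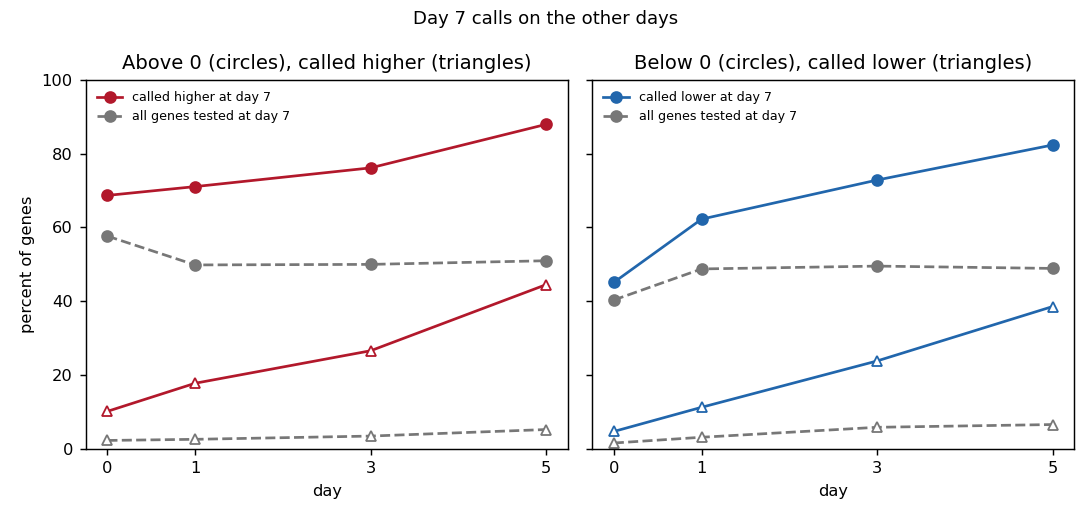
The y axis gives the percent of genes and the x axis the day. Circles show how many of the genes called at day 7 lay on the same side of 0 on the other days, triangles how many were called in the same direction, and grey lines the same for all genes tested at day 7. At day 5, 87.9% of the higher genes lay above 0 and 82.3% of the lower genes below 0, against 51.0% and 48.9% of all tested genes.

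The course of the same genes within each group was read from days 0 and 5, away from the day 7 libraries. In OKS + DsRed 476 of the 916 lower genes were more than 2-fold higher at day 5 than at day 0 (52.0%, against 21.3% of all tested genes), and in OKS + FoxO6 234 were (25.5%, against 14.6%). Of the 670 higher genes, 133 were more than 2-fold lower at day 5 than at day 0 with DsRed (19.9%, against 8.05%) and 60 with FoxO6 (8.96%, against 7.17%). The genes lower at day 7 often came up in the control culture. Both sets were chosen by day 7 levels of the same groups, which favours such courses. All tested genes are not matched for this, so no conclusion is drawn from these shares. The interferon gamma list had a median difference between these days of 4.76 with DsRed and 2.29 with FoxO6, the epithelial list 2.42 and 1.64, and the pluripotency list 1.89 and 1.80. The glycolysis gene Slc2a1 reached a difference of -1.77 at day 5 and lay between 0.11 and 0.77 before. Vegfa was already called lower at day 1, with a difference of -1.71. Nanog had a difference of 0 at days 0 and 1 and of -2.98 at day 5.

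**Figure D5:**
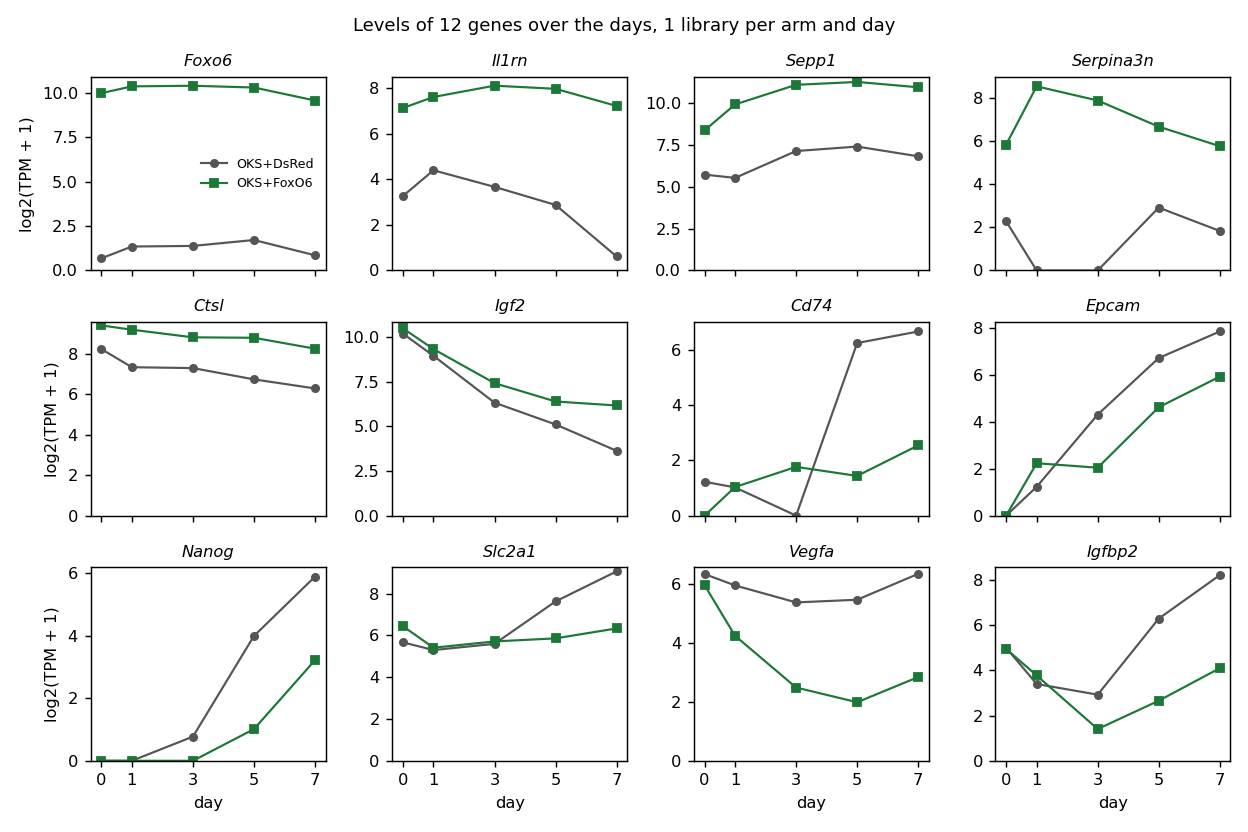
Each panel plots log2(TPM + 1) of 1 gene against the day, circles for OKS + DsRed and squares for OKS + FoxO6, with 1 library per point and no error bar. Foxo6, Il1rn, Sepp1, Serpina3n and Ctsl lie higher with FoxO6 on every day, whereas Cd74, Nanog, Slc2a1 and Igfbp2 lie lower with FoxO6 at days 5 and 7.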

How the data were processed

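RNA was extracted with TRIzol for 10 libraries, 1 per group and day, and sequenced. The labels name a VAHTS library kit and the methods a TruSeq kit. Per the labels and methods, the authors aligned reads to mm10 with Bowtie2 and RSEM, whose versions are not given in the sources used here, and deposited for each gene an expected count, which RSEM divides among isoforms and near-identical genes, and a TPM. The authors also deposited FPKM values from RSEM, scaled by length and library size, which entered no result.

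The members and gene lists were chosen with earlier results of these data known. Genes with at least 10 expected counts in the higher day 7 library were tested. Differences were taken on log2(TPM + 1). A lowess trend on log2 effective length (span 0.3, 3 robustness rounds, statsmodels 0.14.6) was subtracted. Rounded counts were compared with an exact two-sided binomial test against the library totals (scipy 1.17.1), Benjamini-Hochberg adjusted. A call needed over 2-fold before and after the trend and an adjusted p under 0.05. Ratios against 0 reads use a floor of 3 reads per library. Named genes were the 15 called genes with the largest differences after the trend in each direction among those with at least 50 reads, leaving out Gm, Rik and pseudogene models; the transduced genes, the genes of the study's qPCR, defining markers of cell types and up to 4 called members per list and direction. Other settings tried were CPM scaled by TMM, a pseudocount of 0.1, DESeq2 size factors, minima of 30 or none, no trend, no binomial test, a 4-fold threshold, and edgeR 4.0.16 and DESeq2 1.42.0 with dispersions from all 10 libraries. The scripts were tested on simulated data. With 1 library of each group per day, no test reaches the spread between cultures. A few list members are not reported here.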

Additional observations from a re-analysis of the deposited data

Results flagged for a closer look

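Of the genes named by rule, 7 were called one way at day 7 and the opposite way on another day. The difference between days was not tested for any of them, since each day has 1 library per group. Tcf4 had -2.07 at day 7 and 1.54 at day 0, and C1s1, a complement protease, had -1.65 and 1.68 on the same days. Oas2 had 1.25 at day 7 and -1.65 at day 3, and Usp18 had 1.15 and -1.89. Cxcl12, a chemokine, had 2.06 at day 7 and -1.45 at day 1, with few reads. Bnip3 had -1.53 at day 7 and 1.75 at day 3. Rpl10 had 1.79 at day 7, against -2.84 at day 0 and -1.14 on day 5. Its reads are shared with Rpl10-ps3.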

How the results depend on the processing

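The count called higher and lower, 670 and 916, changed by over 1.5 times under 4 alternatives. Without the length trend 1431 genes were called lower. At 4-fold 158 were called higher and 229 lower, with edgeR's exact test and dispersions of all 10 libraries 166 and 123, and with DESeq2's Wald test 87 and 33. These dispersions mix days and groups. On CPM Tcf4 (-1.17), Prrx1 (-0.95), Mmp11 (1.04), Hjurp (-0.82), Fgfr2 (0.74), Tet3 (-1.37) and Jarid2 (-1.05) were no longer called and Sall4 (-1.26) was. No called gene that the text names by rule changed sign under the alternatives run. The cause was not tested. No paired analysis was possible because each group has 1 library at day 7. At this depth, genes under 10 reads were not tested, and genes with few reads have wide intervals.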

Other observations

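By annotated biotype, 617 of the 670 called higher genes and 811 of the 916 called lower genes were protein coding. They made up 5.37% and 7.06% of the 11490 protein coding genes tested, against 5.55% and 7.59% of all 12068 tested genes. Of 119 long intergenic noncoding RNAs tested, 10 were called higher and 23 lower. The 101 tested models that await experimental checks had 8 (7.92%) and 30 (29.7%). Rn18s-rs5, a model of ribosomal RNA, had 1292 reads with DsRed and 2765 with FoxO6.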
